A study of Mus musculus with 24 samples.

Results

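S100g, the gene of calbindin-D9k, and 9 relatives of the S100 family (S100a1, S100a4, S100a6, S100a8, S100a9, S100a10, S100a11, S100a13 and S100a16) were followed in mouse liver. They were found by gene name among the gene probes of a single-colour Agilent expression array, which gave 10 genes on 12 probes of the 37074 genes and 56605 probes on the array. S100g was chosen by its measured values, namely its level in LKO livers after CL316243 and the difference between the genotypes in its response, so its own values are given as a description with no test. The family label holds in part: the 9 relatives were well above background on all 24 arrays, whereas S100g was so on 9 of them and passed the filter on dim probes only through the LKO livers given CL316243.

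The livers came from 24 male C57Bl/6J mice on a standard diet, 6 in each of 4 groups. The genotypes were LWT and LKO, which the series title reads as expressing hepatocyte PPARα or not. The labels used here name neither the allele, the promoter that drives a deletion, nor an age. CL316243 activates the beta3-adrenergic receptor, which sits mainly on adipocytes. It was given once by gavage at 3 mg/kg at ZT10, counted in hours from lights on, and the treatment is labelled Beta3. Vehicle mice received 0.5% carboxymethyl cellulose in water, and all livers were taken at ZT16. Each label number was read as 1 mouse; nothing further in the labels says how the animals were bred or housed in cages.

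S100 proteins are small proteins with paired EF-hands, helix-loop-helix motifs that bind calcium in most of them. Most act by gripping a partner protein once calcium has opened them. S100g differs in role: it buffers and ferries calcium through the cells of the gut, kidney and uterus, and vitamin D is its best known inducer. S100a8 and S100a9 form calprotectin, the main cytosolic protein pair of neutrophils, and can act outside cells on Toll-like receptor 4 and RAGE. S100a10 holds annexin A2 at the plasma membrane, and S100a4, S100a6, S100a11, S100a13 and S100a16 are found in many cell types.

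The probes of S100a1 and S100a8 are shown because they read the coding bases of the canonical calcium-binding loop. The 36 bases of the loop's 12 codons stand in capitals, as the array files give the probe. The probe of S100a13 is shown because it crosses an intron: its 60 bases spread over 8370 bases of chromosome 3 in mm9 (chr3:90319950-90328319, plus strand), so it reads spliced RNA.
S100a1: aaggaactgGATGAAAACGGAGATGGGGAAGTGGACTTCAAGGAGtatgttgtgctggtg
S100a8: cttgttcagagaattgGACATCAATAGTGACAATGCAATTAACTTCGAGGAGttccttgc
S100a13: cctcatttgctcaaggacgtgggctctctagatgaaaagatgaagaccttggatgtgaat
The S100g probe lies on the X chromosome (chrX:159400032-159400091, minus strand, mm9) and begins at base 312 of its RefSeq transcript. All the relatives lie on chromosome 3, in 2 stretches. The probes of S100a1, S100a13, S100a16, S100a4, S100a6, S100a8 and S100a9 fall within 181 kb, those of S100a11 and S100a10 within 38.5 kb, and 2.83 Mb separates the stretches.

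The promoters of S100g, S100a8 and S100a9 are printed because S100g carries the largest contrast between groups here and the other pair changed together. Each line holds the 250 bases before the transcription start from RefSeq (GRCm38.p6), written on the strand of the gene, at chrX:162964600-162964849 (minus), chr3:90668821-90669070 (plus) and chr3:90695722-90695971 (minus). Capitals mark every match, on either strand, to the TATA box TATAAA, the nuclear receptor half-site AGGTCA or the C/EBP pattern TTGCNNAA.
S100g: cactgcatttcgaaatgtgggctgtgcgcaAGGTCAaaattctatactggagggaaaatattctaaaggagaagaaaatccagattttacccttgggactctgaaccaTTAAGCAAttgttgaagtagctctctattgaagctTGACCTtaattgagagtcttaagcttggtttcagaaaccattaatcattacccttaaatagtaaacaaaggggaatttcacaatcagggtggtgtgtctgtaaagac
S100a8: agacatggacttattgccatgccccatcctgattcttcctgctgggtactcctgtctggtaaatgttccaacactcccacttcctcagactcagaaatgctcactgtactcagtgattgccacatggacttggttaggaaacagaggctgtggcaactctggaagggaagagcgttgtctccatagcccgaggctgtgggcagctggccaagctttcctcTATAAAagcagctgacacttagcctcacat
S100a9: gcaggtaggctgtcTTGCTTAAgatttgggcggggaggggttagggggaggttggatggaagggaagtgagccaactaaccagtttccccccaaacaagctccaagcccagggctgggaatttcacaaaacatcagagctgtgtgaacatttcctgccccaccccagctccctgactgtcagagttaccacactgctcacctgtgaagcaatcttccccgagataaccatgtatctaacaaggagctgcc
The S100g window held AGGTCA at bases 220 to 215 before the start, its reverse complement TGACCT at bases 107 to 102, and the C/EBP letters on the reverse strand at bases 142 to 135. The S100a8 window held TATAAA at bases 30 to 25, and the S100a9 window held the C/EBP letters at bases 236 to 229. Single matches are not rare: of 32851 promoters in the table, 14% held the half-site, 12.4% the TATA box and 9.56% the C/EBP letters. The share of promoters with the whole S100g set of matches was not counted. The matches describe letters only, not binding. A promoter was found for 9 of the 10 genes. The windows before S100a1 and S100a13, which are transcribed away from each other, shared 104 bases.

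S100g was close to background in 3 groups and clearly measured in the LKO livers given CL316243. Levels here are log2 of the processed intensity minus the array's 75th percentile, so 0 is the level of that percentile. In the LKO CL316243 group the 6 mice read -2.92, 0.72, 0.95, 1.46, 1.86 and 3.14, all well above background, with a mean of 0.87 ± 2.04 (SD, n = 6). In LWT livers given CL316243 the lowest, median and highest levels were -6.87, -5.46 and -5.06, and no array of 6 was well above background. In LKO livers given vehicle they were -6.39, -5.75 and -4.65, with 1 of 6 arrays well above background, and in LWT livers given vehicle -5.64, -5.29 and -3.35, with 2 of 6. The LKO CL316243 group did not overlap any other, while the other 3 overlapped each other.

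In scanner units, the median S100g intensity was 1060.1 in LKO livers given CL316243, against 10.9 in LWT livers given CL316243, 9.89 in LKO livers given vehicle and 12.6 in LWT livers given vehicle. Because S100g was not well above background on any array of the LWT CL316243 group, the ratio between the genotypes under CL316243 has only a bound. Taken against the lowest reading counted as well above background on each of those arrays, or the probe's own value where higher, it was at least 49.2-fold higher in LKO livers. This bound belongs to the processed intensities. Without that floor the ratio of the group means was 93.0-fold in them. It was 14.8-fold with normexp background correction, which added an offset of 50, and 23.3-fold in the authors' deposited table. These unfloored values are not like the bound, and none is a measured ratio. The gap between the lowest LKO CL316243 mouse and the highest mouse of the other 3 groups was 0.42 on the log2 scale.

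**Figure D1:**
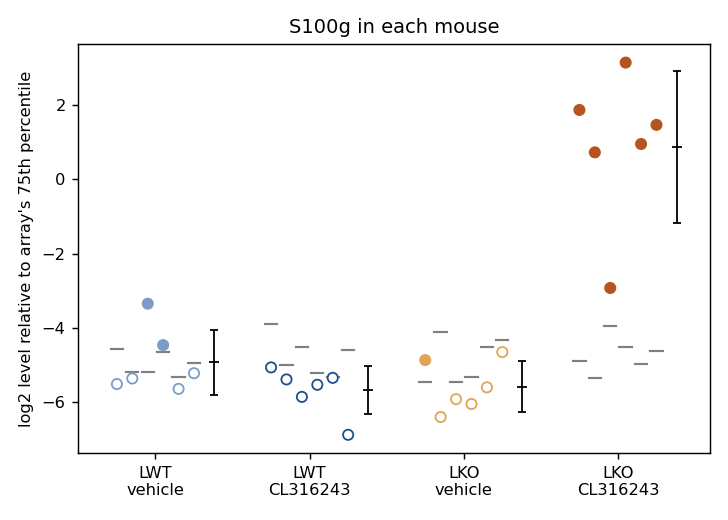
S100g level in each of the 24 mice, as log2 intensity minus the array's 75th percentile, by group; filled points are well above background, grey dashes mark the lowest reading that counted as well above background on the array, and the bars give the group mean ± SD (n = 6). The 6 LKO CL316243 mice lie between -2.92 and 3.14 and the other 18 between -6.87 and -3.35.

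The LKO CL316243 mouse numbered 3 had the lowest S100g of its group. Its level of -2.92 was 3.65 below the next mouse, a Dixon's ratio of 0.602, which is below the 95% critical value for 6 mice. Without it the group mean was 1.63 ± 0.95 (SD, n = 5) and the bound on the ratio 83.3-fold. The same mouse had the lowest Ppara level of its group, 3.06 against 4.35 to 4.85 in the other 5, and its S100a16 level of 1.39 lay below the 1.82 to 1.96 of the rest. Within each of the 3 slides, which carried 2 mice of each group, the LKO CL316243 mean was higher than the LWT CL316243 mean by at least 3.80 to 6.65 on the log2 scale, with each LWT array set as for that bound.

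Likeness to S100g was read with each gene floored at the dimmest signal well above background and centred on its own mean. Genes named only by a probe, clone or gene model identifier were left out. Of the rest, those whose 24 values lay nearest to S100g were Mtmr11, Cxcl14, Mybl1, Trp53inp1 and Usp18. Their root mean square distances from S100g were 1.57, 1.67, 1.74, 1.78 and 1.84 on the log2 scale over 24 arrays. Cxcl14, a chemokine gene, averaged 2.75 in the LKO mice given CL316243, 0.36 in the LWT mice given CL316243, and -1.07 (LWT) and 0.00 (LKO) on vehicle. Mybl1, which encodes a MYB-family transcription factor, rose above background on all 6 arrays of LKO mice given CL316243, and on 2 of LWT mice given CL316243, 1 of LWT mice on vehicle and 0 of LKO mice on vehicle. Trp53inp1, a p53-induced gene, averaged 4.23 in LKO CL316243 livers and 1.49 to 2.03 in the other groups. This likeness is a description of these arrays, which share the group differences.

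Of the 9 relatives, 6 changed with CL316243 in both genotypes, with S100a8, S100a9, S100a10 and S100a11 higher and S100a13 and S100a16 lower. Tests were run with limma on 21331 genes at once, and a change was called at a Benjamini-Hochberg adjusted p under 0.05. In LWT livers 4 of the 9 relatives rose and 3 fell; over all tested genes 38.3% were called, 18.9% higher and 19.4% lower. In LKO livers 4 rose and 2 fell, where 40.3% of all genes were called, 20.9% higher and 19.4% lower. The median change of the 9 was 0.13 in LWT and 0.26 in LKO livers, beside 0.01 and 0.03 over all tested genes. In LWT livers 3 relatives had groups that did not overlap, against 20.4% of all genes, and in LKO livers 4, against 20.8%.

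**Figure D2:**
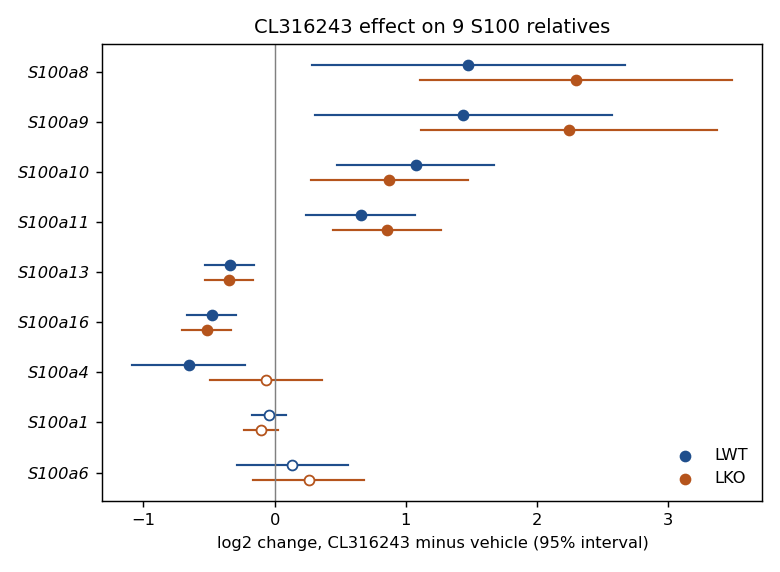
Log2 change with CL316243 against vehicle for the 9 relatives in LWT (blue) and LKO (orange) livers, with 95% intervals from the limma fit over all genes (6 mice a group); filled points have an adjusted p under 0.05. S100a8, S100a9, S100a10 and S100a11 lie above 0 and S100a13 and S100a16 below 0 in both genotypes, and S100a4 is called in LWT only.

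S100a8 and S100a9, the calprotectin pair, had the largest changes among the relatives. S100a8 levels in LWT livers ran from -2.04 to -0.20 with a median of -1.31 on vehicle, and from -1.90 to 1.40 with a median of 0.51 on CL316243. The groups overlapped: CL316243 mice 4 and 6, at -1.90 and -0.60, read below the highest vehicle mouse. In LKO livers S100a8 ran from -1.92 to -0.90 (median -1.61) on vehicle and from -0.84 to 3.19 (median 0.43) on CL316243, without overlap. The S100a8 change was 1.48 ± 0.58 (SE) in LWT livers, 2.79-fold, with a limma adjusted p of 0.0464. In LKO livers it was 2.30 ± 0.58, 4.92-fold, adjusted p = 0.00291.

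S100a9 moved beside its partner. Its levels in LWT livers ran from 0.16 to 1.81 (median 0.71) on vehicle and from 0.34 to 3.28 (median 2.47) on CL316243. In LKO livers they ran from 0.19 to 1.07 (median 0.37) and from 1.17 to 5.07 (median 2.31), and only the LKO groups were apart. The change was 1.44 ± 0.55 in LWT livers (2.71-fold, limma adjusted p = 0.0409) and 2.25 ± 0.55 in LKO livers (4.74-fold, adjusted p = 0.00229).

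The LWT calls of this pair were narrow. With the slide as a block the LWT adjusted p of S100a8 was 0.0562, and leaving out any 1 of 9 LWT mice (all but vehicle mouse 3 and CL316243 mice 4 and 6) ended both calls, with adjusted p up to 0.115 for S100a8 and 0.10 for S100a9. Within slides the S100a8 change ran from -0.14 to 2.33 in LWT livers, higher on 2 of 3 slides, and from 1.57 to 3.55 in LKO livers. Without LKO CL316243 mouse 3 the LKO changes were 1.82 for S100a8 and 1.78 for S100a9, both still called.

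**Figure D3:**
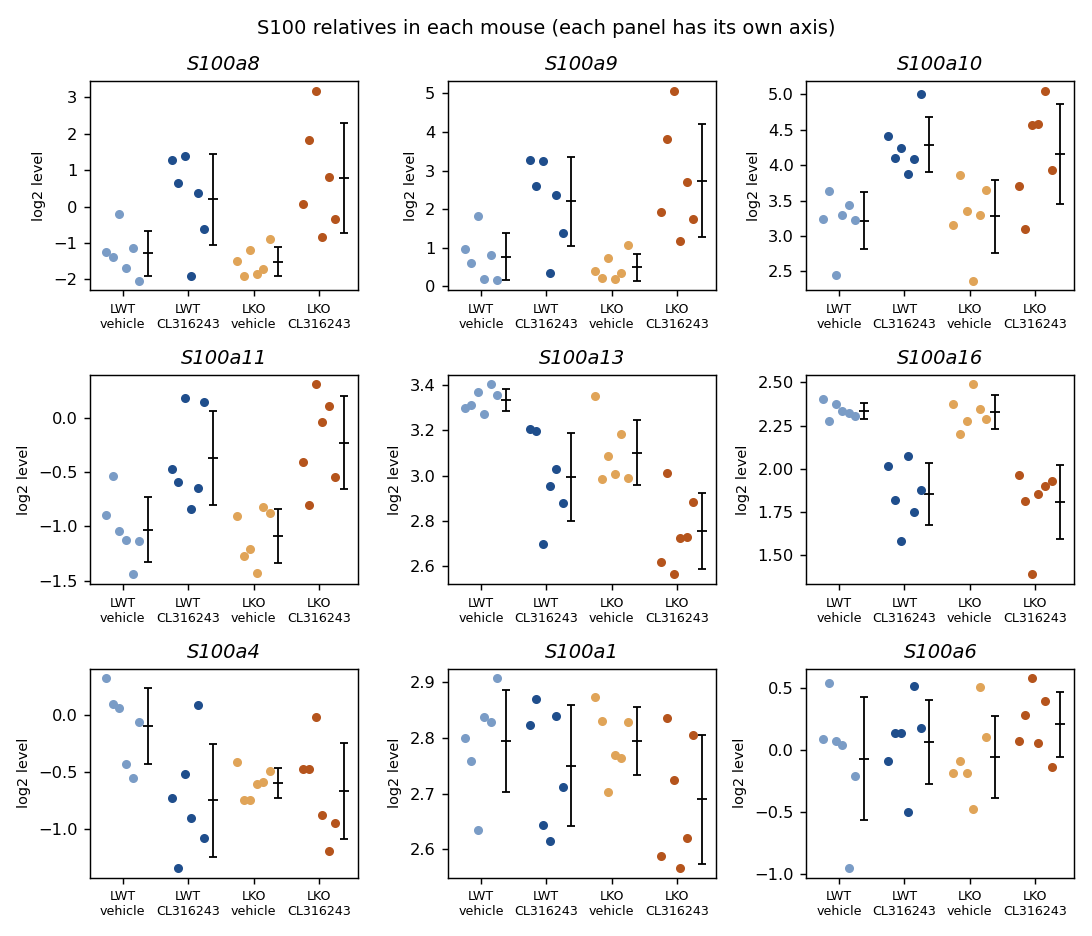
Levels of the 9 relatives in each mouse (log2 intensity minus the array's 75th percentile, 1 panel a gene, own axis each), with the group mean ± SD beside the 6 points of each group. S100a8 and S100a9 spread widely in the CL316243 groups, whereas S100a13 and S100a16 form narrow groups that are lower after CL316243 in both genotypes.

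From mouse to mouse S100a8 and S100a9 kept nearly the same order. In the LKO CL316243 group both ranked the mice 4, 6, 1, 5, 2 and 3 from lowest to highest. S100g ran the other way in that group: mouse 4 had its highest level (3.14) and mouse 3 its lowest (-2.92), and only mice 6 and 1 broke the reverse order. Retnlg, a neutrophil granule gene, ranked those 6 mice exactly as S100a8 did, from -3.43 in mouse 4 to 2.0 in mouse 3. In the LWT CL316243 group Retnlg and S100a8 again had 1 order, mice 4, 6, 5, 2, 1 and 3, with S100g near background throughout. Mice 2 and 3 of the LKO CL316243 group shared a slide, as did mice 1 and 6 and mice 4 and 5. This order was noticed in the values and was given no test. LKO CL316243 mouse 3, at the end of the LKO order, had the lowest array quality weight, 0.20.

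**Figure D4:**
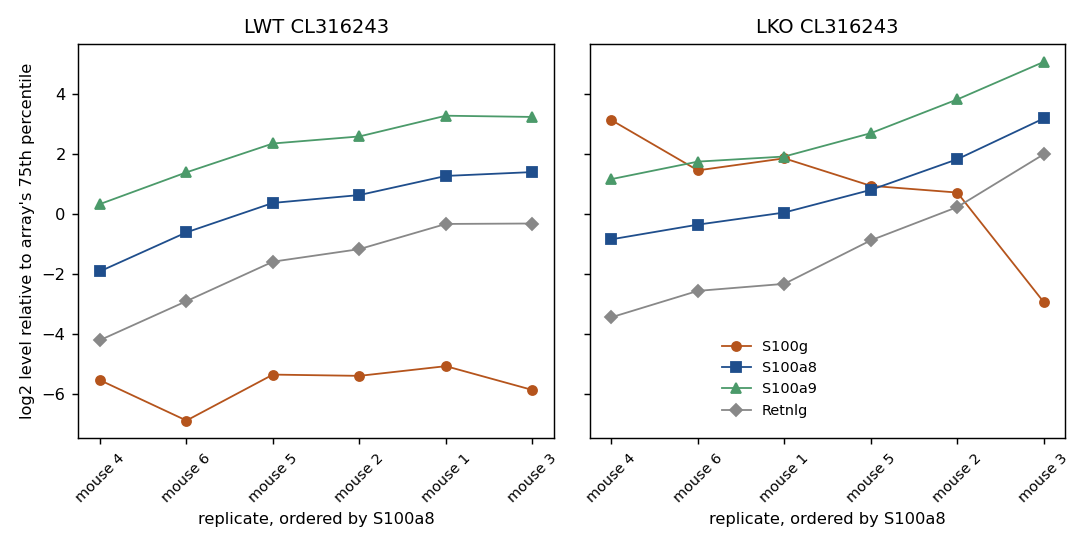
Levels of S100g, S100a8, S100a9 and Retnlg (log2 intensity minus the array's 75th percentile) in the 6 mice of each CL316243 group, ordered by S100a8. In LKO livers S100g falls from 3.14 to -2.92 along an order in which S100a8 runs from -0.84 to 3.19 and Retnlg from -3.43 to 2.0.

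Markers of neutrophils were read beside the calprotectin pair, because fewer or more cells of a type and a change of RNA per cell cannot be told apart in whole liver. Of 20 listed markers 19 were on the array and 11 passed the filter. In LWT livers 3 rose (Lcn2, Retnlg and Il1r2) and 2 fell (Camp and Ly6g), 45.5% of the 11 beside 38.3% of all genes. In LKO livers 7 rose and none fell, 63.6% beside 40.3%. Beside Retnlg and Lcn2 these were Il1r2 (3.44 ± 0.64), Mmp8 (2.55 ± 0.56), Cxcr2 (1.84 ± 0.46), Elane (0.34 ± 0.09) and Csf3r (0.26 ± 0.06). Retnlg changed by 2.06 ± 0.74 in LWT and 3.48 ± 0.74 in LKO livers (limma adjusted p = 0.0311 and 0.000728). Lcn2, which hepatocytes also make in the acute phase, changed by 6.07 ± 0.67 and 6.79 ± 0.67.

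Not all markers of the lineage moved with S100a8. Ly6g, the surface marker of mouse neutrophils, fell by 0.38 ± 0.14 in LWT livers (limma adjusted p = 0.0342) and read -0.28 ± 0.14 in LKO livers, which was not called. Mpo, the granule peroxidase, read 0.21 ± 0.17 and 0.29 ± 0.17, neither called. Ltf, Stfa1 and Cd177 were not well above background on any array, and Ngp was so on 2 of 24. No change could be read for these. The summed level of the 11 markers lay between 6.56 and 6.73 in LWT and between 6.37 and 6.66 in LKO mice on vehicle. It lay between 6.98 and 9.23 in LWT and between 7.28 and 9.07 in LKO mice given CL316243. That sum was carried by Csf3r and Lcn2. Without Lcn2, a choice made after the values were seen, the sum of the other 10 lay between 6.36 and 6.69 on vehicle and between 6.61 and 7.0 on CL316243. Csf3r carried that smaller sum. Without Csf3r too, the other 9 summed to between 0.83 and 0.98 in LKO mice on vehicle and between 1.19 and 3.20 on CL316243. In LWT mice this last sum lay between 0.86 and 1.26 on vehicle and between 0.90 and 1.68 on CL316243. The part of neutrophils in the S100a8 and S100a9 changes was not tested.

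**Figure D5:**
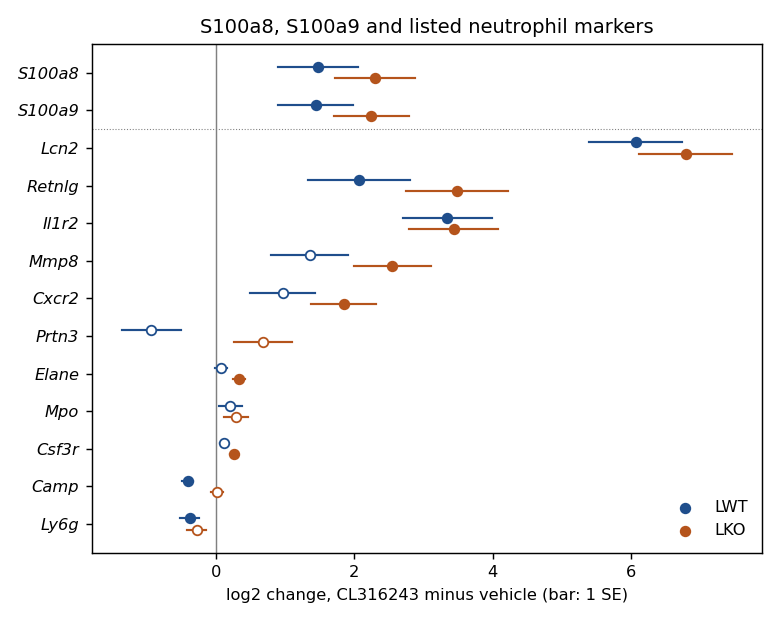
Log2 change with CL316243 for S100a8, S100a9 and the 11 listed neutrophil markers that passed the filter, in LWT (blue) and LKO (orange) livers, with bars of 1 SE (6 mice a group); filled points have an adjusted p under 0.05. Lcn2, Retnlg and Il1r2 lie on the side of S100a8 in both genotypes, whereas Ly6g reads -0.38 in LWT and -0.28 in LKO livers.

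S100a10 and S100a11, neighbours on chromosome 3, both rose in both genotypes. S100a10, the annexin A2 partner also called p11, ran in LWT livers from 2.45 to 3.63 (median 3.26) on vehicle and from 3.88 to 5.0 (median 4.17) on CL316243, with no overlap. The change was 1.08 ± 0.29, 2.11-fold (limma adjusted p = 0.00497). In LKO livers the ranges, 2.37 to 3.86 and 3.10 to 5.05, overlapped and the change was 0.88 ± 0.29 (adjusted p = 0.0185). That LKO call was lost when LKO vehicle mouse 4 (adjusted p = 0.0563) or LKO CL316243 mouse 5 (0.0560) was left out, over a range of 0.00325 to 0.0563 for such fits. Its other probe, which starts at base 358 of the transcript in place of 519, gave changes of 1.17 and 0.86.

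S100a11, which binds annexin A1, ran from -1.44 to -0.53 (median -1.08) on vehicle and from -0.84 to 0.18 (median -0.53) on CL316243 in LWT livers. In LKO livers it ran from -1.43 to -0.82 (median -1.06) and from -0.80 to 0.31 (median -0.22), which did not overlap. The changes were 0.66 ± 0.20 in LWT and 0.86 ± 0.20 in LKO livers (limma adjusted p = 0.0121 and 0.00165).

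Partners and receptors of S100 proteins were read from a list of 21 genes, of which 19 were tested. In LWT livers 5 rose and 3 fell, and in LKO livers 6 rose and 3 fell, with median changes of 0.07 and 0.26. These were 42.1% and 47.4% of the 19, beside 38.3% and 40.3% of all genes. Myd88, the adaptor of Toll-like receptors, rose by 2.0 ± 0.21 in LWT and by 1.34 ± 0.21 in LKO livers (limma adjusted p = 1.40e-07 and 2.83e-05). Anxa6, which binds several S100 proteins, fell by 0.44 ± 0.08 in LWT and by 0.43 ± 0.08 in LKO livers, and Cd36, a fatty acid receptor that can take up calprotectin's lipid cargo, rose by 1.1 ± 0.31 in LWT livers and read -0.02 ± 0.31 in LKO livers, a difference that did not pass (interaction adjusted p = 0.155). Anxa5 rose by 0.27 ± 0.10 in LWT and by 0.56 ± 0.10 in LKO livers. Myh9, a known target of S100a4, rose by 0.50 ± 0.09 in LKO livers and read 0.10 ± 0.09 in LWT livers, and its interaction did not pass (adjusted p = 0.0614). Anxa2 itself, named for its bond with S100a10 and not by the rule, read 0.10 ± 0.14 in LWT and 0.29 ± 0.14 in LKO livers and was not called.

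S100a16 and S100a13 fell by small amounts that stood out from a narrow spread. S100a16 ran in LWT livers from 2.27 to 2.40 (median 2.33) on vehicle and from 1.58 to 2.08 (median 1.85) on CL316243. In LKO livers it ran from 2.20 to 2.49 (median 2.32) and from 1.39 to 1.96 (median 1.88). Neither pair of groups overlapped. The changes were -0.48 ± 0.09 and -0.52 ± 0.09 (limma adjusted p = 0.000182 and 8.70e-05), and the other S100a16 probe read -0.42 and -0.52. S100a16 is known for a role in adipocyte differentiation.

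S100a13, which helps export FGF1 from cells, ran in LWT livers from 3.27 to 3.41 (median 3.34) on vehicle and from 2.70 to 3.20 (median 2.99) on CL316243, without overlap. In LKO livers it ran from 2.98 to 3.35 (median 3.05) and from 2.56 to 3.01 (median 2.72), where 1 CL316243 mouse, number 2, lay inside the vehicle range. The changes were -0.34 ± 0.09 and -0.35 ± 0.09 (limma adjusted p = 0.00393 and 0.00343).

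S100a4, a gene of fibroblasts and motile cells, was called in LWT and not in LKO livers. It ran in LWT livers from -0.55 to 0.33 (median -0.00) on vehicle and from -1.34 to 0.09 (median -0.82) on CL316243, a change of -0.66 ± 0.21 (limma adjusted p = 0.0154), lower on 2 of 3 slides. In LKO livers it ran from -0.75 to -0.41 on vehicle and from -1.19 to -0.02 on CL316243, with a change of -0.07 ± 0.21 (adjusted p = 0.824). The difference between the genotypes, 0.59 with a 95% interval of -0.02 to 1.2, did not pass (adjusted p = 0.294). With array quality weights the LWT change was -0.38 and no longer called.

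S100a1 and S100a6 were not called in either genotype. S100a1, best known in heart and skeletal muscle, read between 2.57 and 2.91 in all 24 mice, and its changes were -0.04 (95% interval -0.17 to 0.09) in LWT and -0.10 (-0.24 to 0.03) in LKO livers. S100a6, or calcyclin, read between -0.95 and 0.58, with changes of 0.13 (-0.29 to 0.56) and 0.26 (-0.16 to 0.68).

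None of the 9 relatives passed the limma test for a difference between the genotypes in the response to CL316243, where 5.41% of all genes were called; at an unadjusted p under 0.05 the count was also 0. The interaction ranged from -0.20 for S100a10 to 0.82 for S100a8, whose 95% interval ran from -0.87 to 2.51. Under vehicle 0 of 9 differed between LKO and LWT livers (1.18% of all genes called), with 2 at an unadjusted p under 0.05, namely S100a4 at -0.50 ± 0.21 and S100a13 at -0.24 ± 0.09. Under CL316243 0 of 9 were called (15.9% of all genes), with 1 at an unadjusted p under 0.05: S100a13 at -0.24 ± 0.09 (adjusted p = 0.0718). Leaving out LKO CL316243 mouse 2 or LWT CL316243 mouse 3 brought the adjusted p of S100a13 to 0.0294 and 0.0185.

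The setting of S100g in vitamin D and calcium handling was read from 22 listed genes, 13 of them tested. The vitamin D receptor Vdr was well above background on 1 of 24 arrays, and Cyp24a1 and Cyp27b1, which degrade and activate vitamin D, on none; these are named for their role. Of the 13, 2 rose and 1 fell in LWT livers, and 2 rose and 4 fell in LKO livers, 23.1% and 46.2% of the list beside 38.3% and 40.3% of all genes. Atp2b1, the plasma membrane pump that drives calcium out of cells, read 0.00 ± 0.06 in LWT livers and rose by 0.39 ± 0.06 in LKO livers (limma adjusted p = 3.00e-05). Its interaction of 0.39 ± 0.09 had an adjusted p of 0.00767, and of the 13 genes it was called alone there. Under CL316243 it was higher in LKO than in LWT livers by 0.39 ± 0.06.

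Other genes of that list moved with CL316243. Slc30a10, a manganese exporter induced by vitamin D in the gut, rose by 1.14 ± 0.14 in LWT and by 1.05 ± 0.14 in LKO livers. Cyp2r1, the liver's vitamin D 25-hydroxylase, fell by 0.69 ± 0.09 and 0.38 ± 0.09, and Rxrb rose in LWT livers by 0.20 ± 0.06. Rxrg, a partner receptor of Vdr, changed by -1.56 ± 0.35 in LKO livers (limma adjusted p = 0.00109) and read 0.01 ± 0.35 in LWT livers. Under CL316243 its LKO minus LWT difference was -1.48 ± 0.35 (limma adjusted p = 0.0046), and its interaction did not pass (adjusted p = 0.0647).

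Markers of gut, pancreas and kidney were read because S100g is abundant in gut and kidney. Of 14 pancreas and gut markers on the array 5 were tested, and of 8 kidney markers 2. Among those not tested, Lct, Sis, Muc2, Prss2 and Amy2b of gut and pancreas and Kap of kidney were not well above background on any array. Under CL316243, 15.9% of all genes were called between LKO and LWT livers. In that comparison 2 of the 5 pancreas and gut markers were higher in LKO livers (Vil1 and Cela2a) and 1 was lower. That was Fabp2, a fatty acid binding protein of gut, at -0.81 ± 0.15 (limma adjusted p = 0.000564), which rose by 0.41 ± 0.15 in LWT livers. Vil1, the villin of gut epithelium, was well above background on 3 of 6 LWT vehicle, 0 of 6 LWT CL316243, 3 of 6 LKO vehicle and 4 of 6 LKO CL316243 arrays. The kidney marker Aqp2, a water channel, rose by 0.42 ± 0.10 in LWT livers and read -0.03 ± 0.10 in LKO livers. Cela2a, a pancreatic elastase, fell by 1.92 ± 0.35 in LWT livers and read 0.79 ± 0.35 in LKO livers, an interaction of 2.71 ± 0.49 (limma adjusted p = 0.0014). The part of such cells in the S100g level was not tested. Of 18 further genes listed, S100 family genes and S100pbp, which encodes an S100P-binding protein, 14 were on the array. Of these S100a2, S100pbp and Tchh were tested. Tchh, a fused-type S100 gene of hair follicles, rose by 1.28 ± 0.49 in LWT livers (adjusted p = 0.0442) and read 1.21 ± 0.49 in LKO livers (adjusted p = 0.0541).

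On each array 26985 to 34202 probes were well above background. By limma's quality weights the arrays were less alike. LKO CL316243 mouse 3 was the lowest at 0.20, the next was LWT CL316243 mouse 3 at 0.47, and the highest was 2.59. All 11 hepatocyte markers on the array passed the filter, and the summed level of that list lay between 11.9 and 12.3. For Ppara the difference of LKO minus LWT livers was -0.68 under vehicle (limma adjusted p = 0.158) and -1.91 under CL316243 (adjusted p = 3.60e-07), and it was present in every LKO liver.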

How the data were processed

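Liver RNA (200 ng) from 24 mice was labelled with Cy3 and hybridised to single-colour arrays, 8 on each of 3 slides. The deposited scanner files hold processed intensity per spot, which per the file headers came from Agilent Feature Extraction, version 10.10.1.1. The authors' deposited table of log2 values covered 31367 probes; 99.3% of its values lay within 0.01 of quantile-normalized log2 median signals (column medians 8.08), and it served as an alternative. Probe positions are mm9 per the file headers.

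Here log2 of the processed intensity minus each array's 75th percentile over non-control spots was used, without outlier spots. A probe was kept where 4 or more of the 6 arrays of any group read it well above background, with 3 values in each group, and the brightest kept probe stood for a gene. limma 3.58.1 (R 4.3.3) fitted 1 mean per group over 21331 genes, with Benjamini-Hochberg adjustment. The contrasts were CL316243 against vehicle in each genotype, their difference, and LKO against LWT under each treatment. The fitting was tested on simulated data. The number of arrays limits the precision. The labels do not say that replicates are separate litters, so p-values measure the spread between these samples.

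The members and lists were chosen with earlier results of these data known. Named were the members, the 5 genes nearest to S100g (names that are only identifiers left out) and defining markers. From the lists of relatives, partners and vitamin D, up to 3 called genes with the smallest adjusted p per comparison were also named. Gene symbols are those of the array design; all 10 members matched RefSeq. Alternatives covered background correction, normalization, filters, probe choice, blocks, weights and leaving out each mouse. No genome of the files' build was used here.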

Additional observations from a re-analysis of the deposited data

Results flagged for a closer look

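In groups of 6 mice, 4 of 48 probe-by-group sets held a mouse far from the rest by Dixon's ratio; chance gives about 1 in 20. S100a10 in LWT livers given vehicle had its lowest mouse, number 3, at 2.45, with the nearest at 3.23. S100a16 in LKO livers given CL316243 had mouse 3 at 1.39, with the nearest at 1.82, and its other probe had the same mouse at 0.79, with the nearest at 1.24. That probe also had LWT vehicle mouse 3 at 1.90, above the nearest at 1.69. LKO CL316243 mouse 3 was also the lowest of its group for S100g.

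Outside the family, interactions are given here for genes of the lists only, not for Ppara or the genes nearest to S100g. Among the named list genes, those whose response to CL316243 differed between LKO and LWT livers by limma's interaction term were as follows. Atp2b1 differed by 0.39 (adjusted p = 0.00767) and Anxa11, an annexin partner of S100a6, by 0.58 (adjusted p = 0.0152). Camp, the cathelicidin gene, differed by 0.42 (adjusted p = 0.0353) and Cela2a by 2.71 (adjusted p = 0.0014). Anxa11 read -0.17 in LWT and 0.40 in LKO livers, and Camp read -0.41 and 0.01.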

How the results depend on the processing

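Of 13 called changes of relatives, 9 kept direction and call under all 13 alternatives run on all arrays. The exceptions were S100a8 and S100a9 in LWT livers, without a filter on dim probes (adjusted p = 0.0850 and 0.0754) and with slide and row as blocks (0.0639 and 0.0558), S100a8 there with the slide block (0.0562), S100a10 in LKO livers when only the groups compared entered the fit (0.0555), and S100a4 in LWT livers with array weights (0.169); the cause was not tested. S100a1 in LKO livers was called with quantile normalization (-0.15, adjusted p = 0.0334). For S100g the unfloored difference of means was 6.44 (CL316243 minus vehicle in LKO livers), 4.02 with normexp and 4.49 in the authors' deposited table, and LKO minus LWT under CL316243 was 6.54, 3.89 and 4.54. The cause was not tested. Only 1 of 6 LKO vehicle arrays and no LWT CL316243 array was well above background, so no such value is a measured ratio.

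Leaving out 1 mouse, the count of relatives called with CL316243 ran from 5 to 7 in LWT and from 5 to 6 in LKO livers. Such counts were 0 to 1 between genotypes under CL316243 and 0 to 0 for the interaction and under vehicle. On all arrays the LKO count was 7 with quantile normalization, 5 with only the groups compared and 4 at 1.5-fold or more. The LWT count was 5 with no filter on dim probes, with slide and row as blocks and at 1.5-fold or more. Between genotypes under CL316243 the count was 1 with array weights. Over all genes, calls at 1.5-fold or more numbered 3801, 3885 and 1627 for CL316243 in LWT, in LKO and genotype under CL316243. The interaction had 664 calls with no filter and 2158 with array weights, the genotype under vehicle 167 and 635 with those settings, and genotype under CL316243 2203 with only the groups compared. Each kept probe on its own gave 13125 called probes for CL316243 in LKO livers and 1908 for the interaction.

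With the replicate number as a block the counts were 7, 6, 0, 0 and 0. Of 36 same-numbered pairs of mice, 11 had deviations correlated over 0.1 (range -0.18 to 0.42). Differently numbered pairs were not compared, so whether the numbers pair the mice cannot be told from this. The block changed no call.

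Uncalled values near 0 changed sign. Array weights gave -0.15 for the S100a6 and 0.052 for the S100a16 interaction, -0.029 for S100a10 under vehicle, and under CL316243 -0.28 for S100a4, -0.029 for S100a6 and 0.049 for S100a16 (LKO minus LWT). The S100a13 interaction was 0.00018 with quantile normalization and 0.0085 in the series table. Under vehicle S100a1 was 0.0013 with normexp, 0.012 with quantile normalization and 0.0037 in the series table, S100a6 -9.3e-05 with normexp, and S100a16 0.00067 with quantile normalization and 0.022 over the mean of its probes.

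Leaving out 1 mouse, the CL316243 change ran from -0.042 to 0.26 for S100a6 in LWT and from -0.19 to 0.040 for S100a4 in LKO livers. Interactions ran from -0.38 to 0.010 (S100a10), -0.064 to 0.046 (S100a13) and -0.093 to 0.046 (S100a16). LKO minus LWT under vehicle ran from -0.032 to 0.022 (S100a1), -0.16 to 0.14 (S100a6), -0.084 to 0.25 (S100a10), -0.14 to 0.041 (S100a11) and -0.039 to 0.018 (S100a16), and under CL316243 from -0.043 to 0.25 (S100a4), -0.31 to 0.079 (S100a10) and -0.10 to 0.038 (S100a16).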

Other observations

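Among markers of other cell types, Ms4a1, the CD20 gene, fell by 1.45 ± 0.35 in LWT and by 1.67 ± 0.35 in LKO livers (limma adjusted p = 0.00211 and 0.000613), whereas Cd79b fell by 1.01 ± 0.33 in LWT livers and read -0.73 ± 0.33 in LKO livers, not called. Of 17 macrophage and Kupffer cell markers 2 rose in LWT and 1 in LKO livers, Cd14 in both, by 2.19 ± 0.68 and 2.51 ± 0.68, and none fell. Clec4f, a Kupffer cell marker, read 0.02 ± 0.14 and 0.07 ± 0.14, neither called. Of 9 tested cholangiocyte markers 1 rose in LWT and 3 in LKO livers. Beside these macrophage and cholangiocyte counts, 19.4% of all genes were called lower in each genotype. The share called higher was 18.9% in LWT and 20.9% in LKO livers. Sox9 rose in both, by 1.47 ± 0.34 and 2.18 ± 0.34. Spp1 (0.96 ± 0.26) and Muc1 (1.06 ± 0.28) rose in LKO livers and read 0.46 ± 0.26 and 0.61 ± 0.28 in LWT livers, and Krt19 read -0.53 ± 0.43 in LWT and 0.25 ± 0.43 in LKO livers.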
